A study of Mus musculus with 14 samples.

Results

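Haematopoietic stem cells (HSCs) of mice lacking Phf19 (KO) were compared with WT cells sorted into the same plates, for plates 350W and 351W of a MARS-Seq experiment. MARS-Seq sorts single cells into wells, tags their transcripts near the 3′ end and counts molecules by unique molecular identifiers (UMIs). Cells were chosen as those of these 2 plates whose table column began with KO or WT and that held 500 or more UMIs. The rule left 372 cells of 384 wells, out of 716 such cells in the 4 plates of the series. They were 95 WT and 92 KO cells in plate 350W and 96 WT and 89 KO cells in plate 351W. The cells came from bone marrow depleted of lineage-positive cells and are labelled as CD150-positive and CD48-negative. KO stands for the Phf19 knockout. The series calls its controls floxed, and whether the WT cells of the plates are those controls is not stated. The labels give neither the age or sex of the mice, the Cre that removed Phf19, nor a genotype for a plate, so genotype was read from the cell names alone.

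Phf19 is an accessory subunit of Polycomb repressive complex 2 (PRC2), which trimethylates lysine 27 of histone H3 over silenced genes. HSCs are rare, mostly resting marrow cells that renew themselves and give rise to every blood lineage. Bach2, the gene the results turn on, encodes a transcription repressor of the CNC-bZIP family that pairs with small Maf proteins. It is known for its roles in B cells, in regulatory T cells and in the choice of early progenitors between lymphoid and myeloid fates.

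WT cells occupied wells 1 to 96 and KO cells wells 97 to 192 of each plate, so genotype and well range cannot be told apart. KO cells were shallower, with median UMIs per cell of 2230 against 3077 in 350W and 3120 against 3806 in 351W. These are KO to WT ratios of 0.725 and 0.820 (mean 0.772 ± 0.0672 SD, n = 2 plates). The 4 sums of cells held 221707 to 394112 UMIs, and levels are given as UMIs of the sum scaled to a common total (CPM). Of the genes of the sort, Cd48 had 1 UMI in all 4 sums and Slamf1, which encodes CD150, 1 to 16. Both were too low for the counts to check the sort. Among stem cell genes Kit had 58 to 98, Ly6a 41 to 110 and Mecom 38 to 68. The 18 listed surface markers ranged from 8 UMIs (Hoxb5) to 1694 (Ifitm1) over the 4 sums. Of the markers of mature cells fixed as lists, 10 of 17 myeloid granule genes were at 0 UMIs in the 2 plates, Mpo and Elane among them, as were 6 of 25 lymphoid genes, with Rag1 and Cd79a among those. At 0 were also 6 of 11 mast cell and basophil and 6 of 18 T and NK cell genes, but only 1 of 19 monocyte and dendritic, 4 of 24 megakaryocyte, 4 of 18 erythroid and 3 of 14 endothelial and stromal genes, and Cd74 and Prtn3 had 343 and 249 UMIs over the 4 sums. The immunoglobulin genes summed to 3.20 to 32.1 CPM. Phf19 had 1 and 0 UMIs in the WT sums of 350W and 351W and 0 and 2 in the KO sums, and since tags near the 3′ end may fall outside the deletion, these counts check no label. The plates themselves differed, with 204 genes past 4-fold between 350W and 351W in both genotypes, which is why KO was set against WT within a plate. Fen1, for example, was at 64.1 CPM (WT) and 36.1 (KO) in 350W and 946 and 896 in 351W.

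The question was which transcripts differed between KO and WT HSCs in the same direction in both plates. Bach2 was the gene called as doing so by a test within plates, which sets aside differences in level between plates. The spread in that test was how far the KO to WT ratios differed between plates, combined with that of other genes. Bach2 had 117 UMIs in WT and 7 in KO cells of 350W, and 110 in WT and 9 in KO cells of 351W. As levels these were 375 and 31.6 CPM in 350W and 279 and 28.8 CPM in 351W, so both KO sums lay far below both WT sums. Its log2 ratio of KO to WT was -3.32 in 350W and -3.02 in 351W. The fitted log2 fold change over both plates was -3.39 (SE 0.285, edgeR's quasi-likelihood test with the plate as a block, adjusted p = 0.00274), a WT level 10.5 times the KO level. Of 7052 genes tested, 0.0142% were called, that is Bach2 alone, and no gene was called as higher (0.0%). At an unadjusted p under 0.05 there were 291 genes (4.13%). In simulated counts the same test called 37.0% of genes changed 2-fold, so a gene not called may still have changed. DESeq2 also called Bach2 alone (adjusted p = 8.23e-04), with 5 genes at an unadjusted p under 0.05. Without the plate block no gene was called by edgeR, 93 genes had an unadjusted p under 0.05, and Bach2 had a log2 fold change of -3.42 (unadjusted p = 3.26e-04, adjusted p = 0.99999). When all sums were thinned to the smallest total, Bach2 kept a log2 fold change of -3.39 and its adjusted p was 0.311. The labels do not say whether the plates hold different mice, so the p-values reflect only how far these sums vary, a spread that may be technical.

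The same UMIs were then counted by cell, which describes the difference and adds no separate support for it. In plate 350W, 44 of 95 WT cells held a Bach2 UMI (46.3%, exact 95% interval 36 to 56.8) against 6 of 92 KO cells (6.52%, 2.43 to 13.7). In plate 351W these were 39 of 96 WT cells (40.6%, 30.7 to 51.1) and 7 of 89 KO cells (7.87%, 3.22 to 15.5). The share of cells with a Bach2 UMI was thus several times lower in KO cells in each plate, with a mean difference of -36.3 percentage points (± 4.97 SD, n = 2 plates). A two-sided exact sign-flip test of the differences within 2 plates cannot go below p = 0.5, so no test is given for this share. Cells also differed in how many molecules they held: 17 WT cells of 350W and 20 of 351W had 3 or more Bach2 UMIs, with a maximum of 8 in both plates, and no KO cell had more than 2. A count of 0 of 92 and of 89 KO cells with 3 or more UMIs allows shares of up to 3.26% and 3.37%. These are 3 divided by the number of cells, a 95% upper bound only, unlike the exact intervals above. The counts are at full depth, which was lower in KO cells. WT cells held 94.4% of the Bach2 UMIs of 350W and 92.4% of those of 351W.

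The shallower KO cells were set on the same depth by thinning every cell to 1000 UMIs, which left out 2 KO cells and 1 WT cell in 350W and 6 KO cells and 1 WT cell in 351W. At that depth 22 of 94 WT cells (23.4%, exact 95% interval 15.3 to 33.3) and 1 of 90 KO cells (1.11%, 0.0281 to 6.04) of 350W held a Bach2 UMI. In 351W it was 22 of 95 WT cells (23.2%, 15.1 to 32.9) and 1 of 83 KO cells (1.20%, 0.0305 to 6.53). The thinned intervals of WT and KO cells did not overlap in either plate. The intervals cover counting error only, since cells of a plate are not replicates of a genotype. Bach2 was also counted along the wells of each plate. Blocks of 24 consecutive wells held 273 to 445 CPM in WT and 16.6 to 69.2 CPM in KO cells of 350W, and 209 to 320 CPM in WT and 13.1 to 40.1 CPM in KO cells of 351W. Every WT block was thus above every KO block, while the KO blocks, with few UMIs each, varied widely among themselves. The blocks split the same UMIs, and each lies within 1 genotype, so they cannot separate genotype from well range. The 5 wells of 350W and the 7 of 351W with under 500 UMIs, of which 4 and 7 were KO wells, held no Bach2 UMI among 1458 and 2715 UMIs. At the KO levels of 0.0316 and 0.0288 Bach2 UMIs per 1000 UMIs, so few UMIs would rarely hold one, and nothing is read from this.

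**Figure D1:**
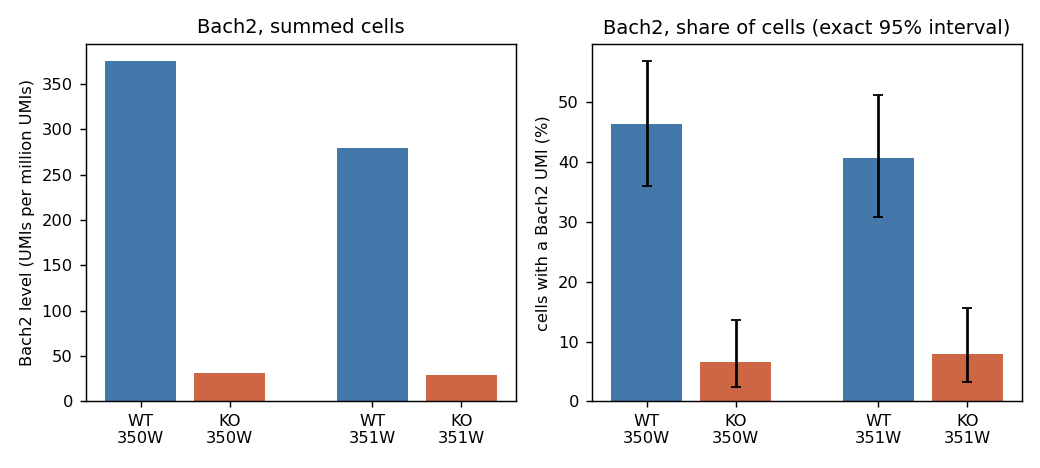
Bach2 by plate and genotype in plates 350W and 351W: bars on the left are levels of the summed cells in CPM, and bars on the right the percent of cells with a Bach2 UMI at full depth, with exact 95% intervals as error bars. Both KO sums lie near 30 CPM (31.6 and 28.8) and both WT sums at 279 CPM or above, and the intervals of WT and KO cells do not overlap in either plate. The intervals cover counting error only, and cells are not replicates of a genotype.

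A promoter of Bach2 is shown because Polycomb proteins act at promoters, often at those rich in CG dinucleotides, and Bach2 was the called gene. The stretch runs from 250 bases before a RefSeq start of Bach2 to 50 after it, at chr4:32417185-32417484 on the plus strand of GRCm38.p6. Its last 50 bases thus lie in the first exon from that start. Capitals mark the dinucleotide CG, which reads the same on both strands.

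Bach2 promoter: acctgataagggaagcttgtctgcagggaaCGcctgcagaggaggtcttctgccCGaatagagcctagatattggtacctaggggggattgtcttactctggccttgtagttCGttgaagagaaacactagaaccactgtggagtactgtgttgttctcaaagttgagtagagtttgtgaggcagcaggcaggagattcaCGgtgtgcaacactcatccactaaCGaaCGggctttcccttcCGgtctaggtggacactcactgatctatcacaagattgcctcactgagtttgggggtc

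It held 7 CG dinucleotides in 300 bases. The median of 32851 mouse promoters of the same length was also 7, and 52.1% of them held at least 7, so by this count the stretch shown was ordinary. No other start of Bach2 was examined. No chromatin data were joined to the stretch here.

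Beyond Bach2 the plates showed little common movement. Past 2-fold in both plates, 23 genes were higher (0.326% of those tested) and 35 lower (0.496%) in KO cells. These 58 genes (0.822%) stand beside 44 genes (0.624%) that were past 2-fold in opposite directions in the 2 plates. With no minimum size, 24.9% of genes were higher in both plates, 26.6% lower in both and 48.3% opposite. In single plates, 819 genes (11.6%) were past 2-fold in 350W and 563 (7.98%) in 351W. Most genes past 2-fold in both plates had few UMIs: among 2488 genes with 100 or more UMIs, 1 was higher and 2 lower in both plates, and 2 went opposite ways. Across the 7052 genes the log2 ratios of the plates had a Pearson correlation of 0.0274, a description over genes, which are not independent replicates.

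**Figure D2:**
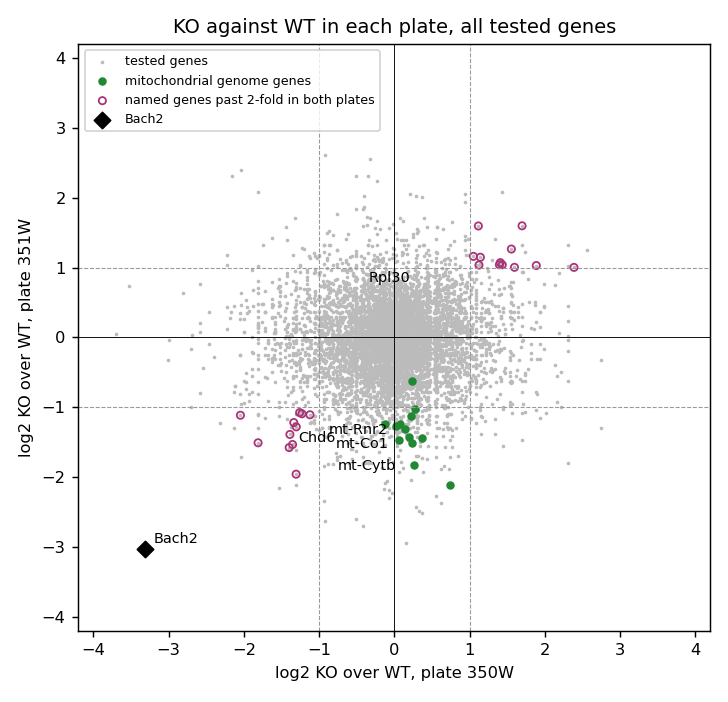
Log2 ratio of KO to WT for each of the 7052 tested genes, plate 350W on the horizontal and 351W on the vertical axis, with dashed lines at 2-fold. The cloud has no slope (correlation 0.0274), Bach2 sits alone at -3.32 and -3.02, and the mitochondrial genome genes (green) lie low in 351W and near 0 in 350W.

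Genes with 40 or more UMIs that were past 2-fold in the same direction in both plates were named by smallest unadjusted p. None was called, with an edgeR adjusted p of 0.977 for each, and since both directions were fixed by the choice, their values are a description. Among those higher in KO cells, Parn, a poly(A)-specific ribonuclease that shortens mRNA tails, was at 44.9 (WT) and 104 CPM (KO) in 350W and 30.4 and 106 in 351W. Its fitted log2 fold change was 1.5 (SE 0.381). Akap7, an anchoring protein of protein kinase A, was at 77.0 and 176 CPM in 350W and 48.2 and 115 in 351W. Xdh, the enzyme that breaks purines down to uric acid, was at 9.62 and 45.1 CPM in 350W and 17.8 and 67.2 in 351W, so its WT sums rested on few molecules. The rest of these higher genes had fitted log2 fold changes of 1.20 to 1.85. They were Mtch1, an outer mitochondrial membrane protein, Eif2s2, a subunit of translation initiation factor 2, Inpp1, an inositol phosphatase, Ppid, a cyclophilin, Cdk11b, a cyclin-dependent kinase, Rhoh, Tns2, Lrrc42 and Rabepk. Roles in RNA handling, signalling and folding were thus mixed among them.

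On the lower side, Chd6, a chromodomain helicase that remodels chromatin, followed Bach2. It had 22 and 5 UMIs in WT and KO cells of 350W and 50 and 12 in 351W, or 70.5 and 22.6 CPM and 127 and 38.4 CPM (fitted log2 fold change -1.68, SE 0.398). Spink10, a Kazal-type serine peptidase inhibitor, was at 54.5 and 18 CPM in 350W and 55.8 and 9.60 in 351W (-2.03, SE 0.587). Rgs18, a regulator of G protein signalling found in platelets and megakaryocytes, was at 106 and 36.1 CPM in 350W and 35.5 and 9.60 in 351W (-1.64, SE 0.499). In each of these 3 genes the KO sum was at or below 40 CPM in both plates, while for Rgs18 the WT sum of 351W was as low as the KO sum of 350W. March6, a ubiquitin ligase of the endoplasmic reticulum, was at 48.1 and 9.02 CPM in 350W and 48.2 and 12.8 in 351W (-2.07, SE 0.659). The other lower genes had fitted values of -1.78 to -1.21. They were Cul1, the scaffold of SCF ubiquitin ligases, Usp48, a deubiquitinase, and Mkln1, a component of the CTLH ligase, Polr2d, a subunit of RNA polymerase II, Sltm, a nuclear RNA-binding protein, and the predicted genes Gm11878 and Gm8292. Predicted genes can share reads with near-identical copies and are uncertain.

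**Figure D3:**
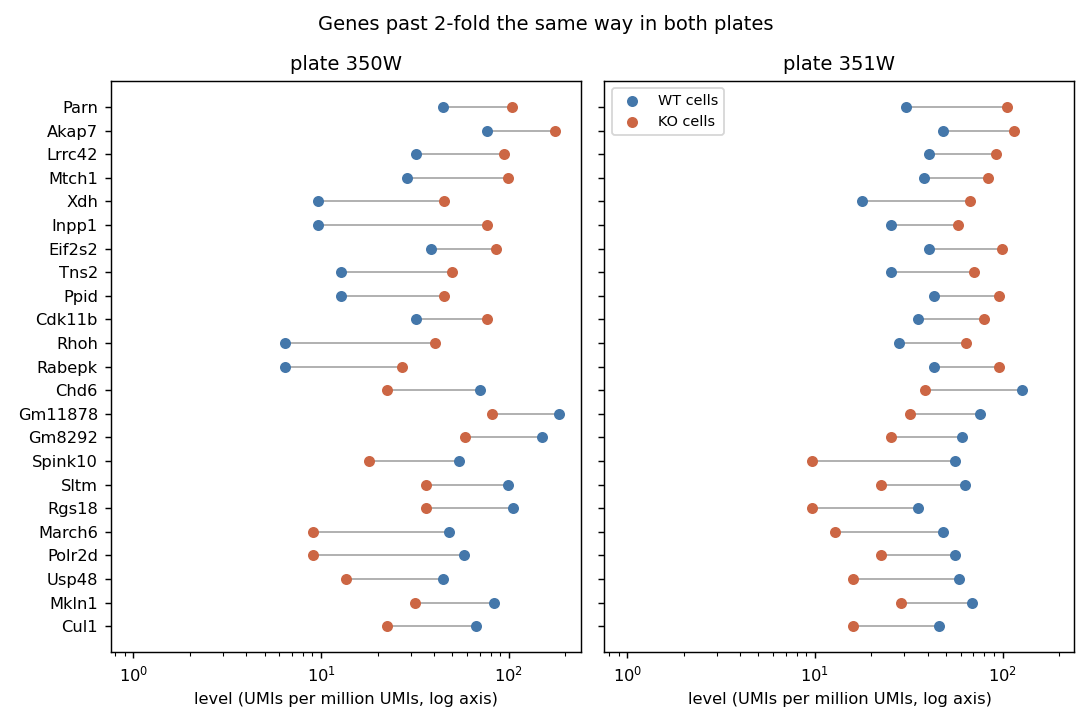
Levels in CPM (log axis) of the named genes past 2-fold in the same direction in both plates, 1 row per gene and 1 panel per plate, with the WT and KO sums as joined points and Bach2 left out. WT and KO points separate within each plate by construction, and none of the plotted genes passed the test over all genes (edgeR adjusted p of 0.977 for each).

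Rpl30, a protein of the large ribosomal subunit, had the smallest p after Bach2 and was singled out after its values were seen. It had 306 and 309 UMIs in WT and KO cells of 350W and 295 and 432 in 351W, which are 981 and 1394 CPM and 749 and 1382 CPM. Both KO sums were above both WT sums, and the fitted log2 fold change was 0.70 with an SE of 0.118 (edgeR adjusted p = 0.555). Plate 351W alone, with the spread taken from the other plates, gave 0.90. With no gene filter Rpl30 was called (0.68, edgeR adjusted p = 8.64e-05). That setting also called mt-Rnr2 (edgeR adjusted p = 7.89e-12), which went opposite ways in the 2 plates, so its calls do not show a common direction. Ribosomal protein genes have many near-identical copies in the genome, so the value of Rpl30 is uncertain.

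Of 36 gene lists, the summed level of 5 was higher in KO cells in both plates and that of 13 was lower in both, while the other 18 were not on one side in both plates. The 13 include both lists that hold Bach2, and the immunoglobulin list, with 10 and 3 UMIs in WT and KO cells of 350W and 2 and 1 in 351W. These numbers of lists are thus not read as a lean of programmes. Over all tested genes the median fitted log2 fold change was -0.00404, beside which the medians of lists are read. Counts of list members are read beside the shares over all tested genes. These were 24.9% higher in both plates, 26.6% lower in both and 48.3% opposite, with 4.13% at an edgeR unadjusted p under 0.05. Bach2 was the called gene in every list that held one. The lymphoid and B cell list, which holds Bach2, summed to 651 (WT) and 302 CPM (KO) in 350W and 609 and 339 in 351W, KO to WT ratios of 0.464 and 0.557. Without Bach2 the same list was at 276 and 271 CPM in 350W and 330 and 310 in 351W, ratios of 0.981 and 0.941. Of its 6 tested members, 1 was higher and 2 were lower in both plates. Ikzf1, a transcription factor needed for lymphocyte development, was at 51.3 and 49.6 CPM in 350W and 33.0 and 22.4 in 351W, and Cd37, a tetraspanin of B cells, at 32.1 and 40.6 and at 50.7 and 70.4.

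**Figure D4:**
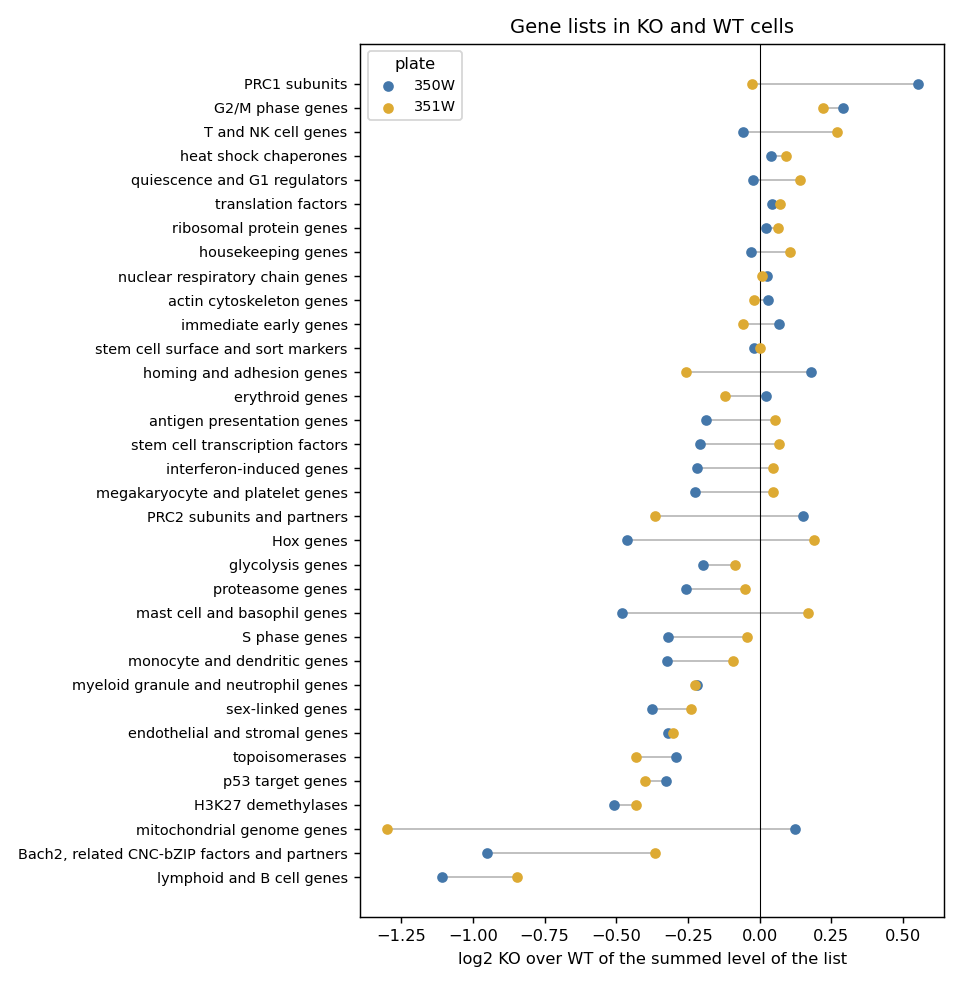
Log2 ratio of KO to WT of the summed level of each gene list, 1 point per plate joined by a line, with the immunoglobulin and haemoglobin lists left out. The lymphoid list lies lowest of the plotted lists in 350W, followed by the Bach2 family list, and both hold Bach2. In 351W the mitochondrial list is lowest and the lymphoid list next, and the mitochondrial genome genes have points on opposite sides of 0.

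Factors related to Bach2 were examined as its family and partners. Bach2 aside, the family list summed to 330 (WT) and 334 CPM (KO) in 350W and 513 and 585 in 351W, ratios of 1.01 and 1.14. Nfe2, a CNC-bZIP factor of megakaryocytes and red cells, was at 170 and 149 CPM in 350W and 233 and 301 in 351W. Nfe2l2, also called Nrf2, the activator of oxidative stress genes, was at 57.7 and 45.1 CPM and at 104 and 166. Both went opposite ways in the 2 plates. Prdm1, which encodes the plasma cell regulator Blimp-1 and is a known target of Bach2 repression in B cells, was at 44.9 and 36.1 CPM in 350W and 63.4 and 41.6 in 351W, with a fitted log2 fold change of -0.48 (SE 0.45).

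Polycomb genes other than Phf19 did not move in one direction. Among 7 tested PRC2 subunits and partners, 2 were higher in both plates, 1 was lower in both and 4 went opposite ways, with a median fitted log2 fold change of -0.03. Rbbp7, a histone-binding subunit, was at 305 and 280 CPM in 350W and 190 and 144 in 351W, and Suz12, a core subunit, at 57.7 and 67.7 and at 48.2 and 57.6. Jarid2, a partner that guides PRC2 to chromatin, was higher in KO cells of 350W (80.2 and 131 CPM) and lower in those of 351W (83.7 and 38.4). None of the 7 reached an unadjusted p of 0.05. Of 10 tested PRC1 subunits, 4 were higher in both plates, none was lower in both, and 6 went opposite ways (median 0.13), with summed KO to WT ratios of 1.47 in 350W and 0.982 in 351W. Phc1, a polyhomeotic subunit, was at 38.5 and 72.2 CPM in 350W and 190 and 205 in 351W.

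No stem cell gene was called. None of 17 tested transcription factors of stem cells and none of 9 tested surface markers had an unadjusted p under 0.05. Hlf, a factor that marks HSCs, was at 372 and 406 CPM in 350W and 287 and 281 in 351W, with a fitted log2 fold change of 0.05. Kit, the receptor of stem cell factor, was at 224 and 262 and at 249 and 195 CPM, and Ly6a, which encodes Sca-1, at 180 and 185 and at 279 and 227. Erg, an ETS factor that maintains stem cells, was at 138 and 158 CPM in 350W and 282 and 342 in 351W, and Myct1 at 391 and 320 and at 173 and 202. Ifitm1, a membrane protein found on HSCs, was at 1472 and 1452 CPM in 350W and 1218 and 1385 in 351W. The summed surface markers had KO to WT ratios of 0.987 and 1, and the summed transcription factors 0.867 and 1.05. In these summed cells a lower level in each cell and fewer expressing cells cannot be told apart. Hoxa9, a homeobox factor of stem and progenitor cells, was at 60.9 and 90.2 CPM in 350W and 38.1 and 70.4 in 351W (fitted log2 fold change 0.72, edgeR unadjusted p = 0.0857).

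In the cell cycle lists, genes of the G2 and M phases summed higher in KO cells in both plates, at 737 (WT) and 902 CPM (KO) in 350W and 814 and 950 in 351W, ratios of 1.22 and 1.17. No member passed the test. As a mean of each cell's CPM in place of the sum, the log2 ratio of the list was 0.0608 ± 0.097 (SD, n = 2 plates) against 0.256 ± 0.0486 for the sums. Of 9 tested members, 4 were higher in both plates, none was lower in both and 5 went opposite ways. Top2a, the topoisomerase that untangles chromosomes before division, was at 22.4 and 54.1 CPM in 350W and 25.4 and 44.8 in 351W (1.02 on the log2 scale, edgeR unadjusted p = 0.082). Hmgb2, a chromatin protein of dividing cells, was at 48.1 and 90.2 and at 48.2 and 73.6 CPM (0.75, edgeR unadjusted p = 0.0753), and Nusap1, a spindle protein, at 44.9 and 85.7 and at 48.2 and 70.4. After thinning to 1000 UMIs a cell, however, the share of cells with a UMI of the list was 51.1% in WT and 45.6% in KO cells of 350W and 63.2% and 54.2% in 351W, lower in KO cells, while the mean number of UMIs was 0.734 and 0.822 and 0.895 and 0.904. The S phase list went the other way in its sum, with ratios of 0.801 and 0.970, and its 18 tested members were divided as 5 higher in both plates, 5 lower and 8 opposite. Among regulators of rest and G1, Ccnd2 was at 356 and 280 CPM in 350W and 244 and 240 in 351W, Cdk4 at 147 and 180 and at 231 and 307, and Txnip, a brake on glucose uptake, at 234 and 221 and at 254 and 339. The 11 tested members were 3 higher in both plates, 4 lower in both and 4 opposite.

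No lineage gene other than Bach2 was called. The summed level of monocyte and dendritic genes had KO to WT ratios of 0.799 and 0.939, with 2 of 10 tested members higher in both plates, 6 lower in both and 2 opposite. Tcf4, a factor of plasmacytoid dendritic and B cells that HSCs also express, was at 484 and 329 CPM in 350W and 474 and 393 in 351W (-0.40 on the log2 scale, SE 0.157, edgeR unadjusted p = 0.0301, adjusted p = 0.977). Cd74, the invariant chain of MHC class II, was at 391 and 284 CPM and at 244 and 198. Prtn3, a granule protease, was at 237 and 189 CPM in 350W and 193 and 182 in 351W, while Csf3r, the G-CSF receptor, had no UMI in 350W and was at 343 and 256 CPM in 351W. Vwf, which platelets and platelet-biased HSCs express, was at 532 and 478 CPM in 350W and 58.4 and 32.0 in 351W, so its levels followed the plate more than the genotype. Of 9 tested megakaryocyte genes 1 was higher and 3 were lower in both plates. The erythroid list had ratios of 1.02 and 0.920, with none of its 3 tested members higher in both plates, 1 lower in both and 2 opposite. That lower member, Hbb-bt, an adult beta-globin, had 11 and 2 UMIs in WT and KO cells of 350W and 23 and 7 in 351W (-1.54, SE 0.595, edgeR unadjusted p = 0.0273), with few molecules behind each sum. The other globins detected, Hba-a1, Hba-a2 and Hbb-bs, had 0 to 2 UMIs in any sum, and the haemoglobin list had ratios of 1.41 and 0.485. Endothelial and stromal genes summed to ratios of 0.802 and 0.812.

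Topoisomerases relax or untangle DNA, and 2 of the 4 tested genes of this list were lower in KO cells in both plates and 2 higher. Top1 had 34 and 12 UMIs in WT and KO cells of 350W and 28 and 7 in 351W, or 109 and 54.1 CPM and 71.0 and 22.4 CPM. All KO sums of Top1 were below both WT sums (-1.28, SE 0.406, edgeR unadjusted p = 0.0105, adjusted p = 0.977). Top2b, the isoform of resting cells, was at 131 and 99.2 CPM in 350W and 140 and 51.2 in 351W (-0.91, edgeR unadjusted p = 0.0258). Topbp1, a partner in the DNA damage checkpoint, lay on the higher side with Top2a, at 16 and 27.1 CPM and at 50.7 and 80.0.

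The transcripts of the mitochondrial genome, which encode parts of the respiratory chain, differed between the plates. They made up 2.65% of UMIs in WT and 2.88% in KO cells of 350W, and 0.623% in WT and 0.253% in KO cells of 351W, ratios of 1.09 and 0.406. All 13 tested mitochondrial genes were lower in KO cells of 351W and 12 of them were higher in KO cells of 350W. mt-Cytb, a subunit of complex III, had 735 and 620 UMIs in WT and KO cells of 350W and 153 and 33 in 351W, or 2357 and 2796 CPM and 388 and 106 CPM. mt-Co1, a subunit of complex IV, was at 2225 and 2594 CPM in 350W and 721 and 250 in 351W. Single cells followed the sums, with medians of 2.71% in WT and 2.81% in KO cells of 350W and 0.560% and 0.256% in 351W. In the latter the middle 50% of WT cells spanned 0.426% to 0.785% and that of KO cells 0.168% to 0.375%, so these ranges did not overlap. A test of the difference between the plates was added after the values were seen. It gave 350W and 351W a KO effect each, so its spread came from the other plates of the series. It called 7 of 8685 genes (0.0806%). They included mt-Cytb (-2.13 on the log2 scale, 351W minus 350W, SE 0.238, edgeR adjusted p = 1.06e-05), mt-Co1 (-1.76, edgeR adjusted p = 4.24e-04) and mt-Rnr2, the large ribosomal RNA (-1.44, edgeR adjusted p = 8.23e-04). By the same fit, 351W alone gave 15 lower genes (0.173%) and 1 higher (0.0115%), and 350W alone gave 1 lower gene (0.0115%), Bach2. Bach2 was also among the 15. Nuclear genes of the respiratory chain did not share the pattern, with 25 of 78 tested higher in both plates, 19 lower in both and 34 opposite. With mitochondrial genes removed from the counts, Bach2 alone was again called (log2 fold change -3.39, edgeR adjusted p = 0.0171). RNA quality was not measured, and its part in the mitochondrial difference was not tested.

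**Figure D5:**
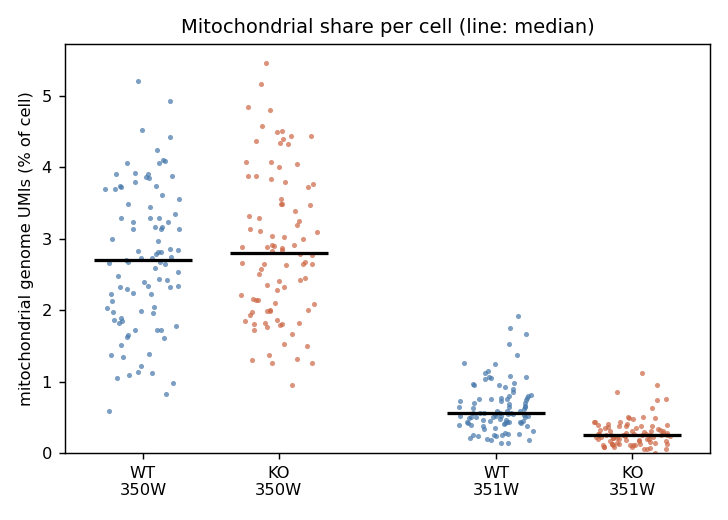
Percent of each cell's UMIs from the mitochondrial genome by plate and genotype, 1 point per cell with the median as a line. WT and KO medians lie close in 350W (2.71% and 2.81%) and apart in 351W (0.560% and 0.256%).

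Protein synthesis genes lay slightly above 1 in both plates. Ribosomal protein genes took 10.0% of UMIs in WT and 10.2% in KO cells of 350W and 10.1% and 10.6% in 351W. Of 86 tested, 33 were higher in both plates, 20 lower in both and 33 opposite, with 7 higher and 8 lower at an edgeR unadjusted p under 0.05. Over all tested genes 24.9% were higher in both plates, 26.6% lower in both and 4.13% under that p in either direction. Rplp1, of the ribosomal stalk, was at 3646 and 4357 CPM in 350W and 3222 and 3640 in 351W (0.22 on the log2 scale, SE 0.0668, edgeR unadjusted p = 0.00834). Translation factors had ratios of 1.03 and 1.05, with 9 of 32 tested higher in both plates and 7 lower in both. Heat shock chaperones had ratios of 1.03 and 1.07, with 6 of 19 higher and 2 lower in both. Proteasome genes lay on the other side, at ratios of 0.836 and 0.964, with 4 of 36 higher and 12 lower in both plates and a median log2 fold change of -0.20. Glycolysis genes, 12 of them tested, had none higher in both plates and 5 lower in both, and Ldha, which makes lactate, was at 224 and 194 CPM in 350W and 381 and 304 in 351W.

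Among response genes, antigen presentation summed to 6650 and 5841 CPM in 350W and 5438 and 5643 in 351W, without a common direction. B2m, the light chain of MHC class I, had 608 and 364 UMIs in WT and KO cells of 350W and 159 and 58 in 351W, or 1949 and 1642 CPM and 403 and 186 CPM (-0.57, SE 0.179, edgeR unadjusted p = 0.00957, adjusted p = 0.977). In 351W alone, with the spread from the other plates, it was at -1.11. With no gene filter it was called (-0.60, edgeR adjusted p = 0.0175), in a setting that also called mt-Rnr2 despite its opposite directions. The level of B2m differed more between plates than between genotypes. H2-D1, a heavy chain of class I, was at 667 and 744 CPM and at 736 and 812, higher in KO cells of both plates. Of 16 tested interferon-induced genes 2 were higher in both plates, 6 lower in both and 8 opposite. Jun, an immediate early factor, was at 196 and 140 CPM in 350W and 150 and 102 in 351W (edgeR unadjusted p = 0.0686), while Ier2, another immediate early gene, was at 115 and 135 and at 129 and 176. Of the 12 tested immediate early genes, 2 were higher in both plates, 3 lower in both and 7 opposite.

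Sex-linked transcripts were present in every sum. Xist, the RNA of the inactive X chromosome, had 19 and 2 UMIs in WT and KO cells of 350W and 28 and 13 in 351W (-1.35 on the log2 scale, SE 0.536, edgeR unadjusted p = 0.0306). The Y-linked genes of the list had 60 and 41 UMIs in 350W and 82 and 59 in 351W, and Ddx3y was at 131 and 158 CPM and at 173 and 157. Xist without a Y-linked UMI was found in 5 WT and 0 KO cells of 350W and in 12 WT and 6 KO cells of 351W. Xist together with a Y-linked UMI was found in 5 WT and 2 KO cells of 350W and in 8 WT and 2 KO cells of 351W. No doublets were called, and how both came to lie in 1 well was not tested, so these counts cannot assign a sex to single cells. The labels do not state which sex the mice were, and the part of sex in any difference was not tested.

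The KO effect was set against that in plates 352W and 353W of the same series, which hold 344 cells by the same rule. No gene differed between the plate pairs at an edgeR adjusted p under 0.05 over 8685 genes (0.0%), and 312 (3.59%) had an unadjusted p under 0.05. Bach2 had 60 UMIs in WT and 1 in KO cells of 352W and 137 and 14 in 353W, and its log2 fold change was -3.29 there (edgeR adjusted p = 8.11e-04, SE 0.363). The difference of the pairs was -0.09 (SE 0.625, edgeR adjusted p = 1), an SE within which a 2-fold change of the Bach2 effect would not have been detectable. Rpl30 was higher by 0.83 in the other pair (edgeR adjusted p = 0.0206). Of the 12 named genes past 2-fold higher in both plates, 5 had a log2 fold change above 0 in the other pair and 7 one below 0 (median -0.14, from -0.51 for Xdh to 5.04 for Tns2). Both ends rest on few molecules. Tns2 had 0 UMIs in each WT sum there and 4 and 3 in the KO sums (SE 1.78), so the size of its value cannot be read. Xdh had 6 and 1 UMIs in WT and KO cells of 352W and 7 and 6 in 353W. Of the 11 lower ones, Bach2 aside, 9 were below 0 and 2 above (median -0.34, from -1.30 for Spink10 to 0.26 for March6). None of these was called in the other pair (edgeR adjusted p = 1 for each). The lymphoid list had ratios of 0.724 and 0.466 in 352W and 353W, but there it summed to 14722 and 4873 CPM in WT cells. The immunoglobulin list was at 20435 and 3863 CPM in those cells, with ratios of 0.673 and 0.301, so these lymphoid ratios cannot be set beside those of 350W and 351W. The G2 and M phase list had ratios of 1.08 and 1.03, and the mitochondrial genome genes of 1.05 and 0.579.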

How the data were processed

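The authors deposited 1 table of raw UMI counts per gene and cell for each plate, with no normalization. The submitters' processing notes name the build GRCm38.p4 and FastQC; no other tool is named in the sources used here. Of 23332 gene IDs in the 2 tables, 23225 were paired with a symbol. Wells under 500 UMIs were left out and no doublets were called. Summed counts of each genotype in each plate were compared with edgeR 4.0.16 in R 4.3.3 (filterByExpr, TMM, quasi-likelihood, plate as replicate block, Benjamini-Hochberg adjustment, threshold 0.05), which leaves 1 residual degree of freedom. The test also borrows spread from other genes, with a prior of 8.775 degrees of freedom for most genes. The plate pairs its WT and KO sums: over 7052 genes, the plate deviations of WT and KO sums had a correlation of 0.638. Ratios within a plate use log2 CPM with a prior count of 2. The model was tested on simulated counts with a common spread for all genes. It called, in the right direction, 2.13% of genes changed 1.5-fold, 37.0% changed 2-fold, 82.5% changed 4-fold and 100% changed 8-fold. Of 6303 unchanged genes it called 3.

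Named in the text are called genes, up to 12 genes in each direction past 2-fold in both plates with 40 or more UMIs by unadjusted p, up to 4 members of each list by mean CPM, Phf19 and the sort markers. Members and lists were chosen with earlier results of these data known. Promoters are from RefSeq.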

Additional observations from a re-analysis of the deposited data

Results flagged for a closer look

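Genes whose KO effect differed between the plates were found by the difference of log2 fold changes, 351W minus 350W. It was tested with edgeR over 8685 genes, with the spread taken from the other plates of the series. Among mitochondrial genes it was -2.13 for mt-Cytb (edgeR adjusted p = 1.06e-05), -1.76 for mt-Co1 (4.24e-04), -1.44 for mt-Rnr2 (8.23e-04) and -1.85 for mt-Nd5 (0.0136). Each was lower in KO cells of 351W. Of the predicted genes, Gm42418 had a difference of -0.87 (edgeR adjusted p = 6.38e-05), Gm13340 of -2.15 (0.0016) and Gm11410 of -3.28 (0.0136). mt-Nd5 and the predicted genes were chosen after their values were seen.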

How the results depend on the processing

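Of 30 alternatives for the main results, 22 stayed within 1.5 times or within the spread of plates. The test called 8 genes with no gene filter, 0 with no replicate block, 0 after thinning sums to equal totals, and 1 (without 351W) to 16 (without 350W) on leaving out a plate, where the spread comes from the other plates; the cause was not tested. The log2 fold change of Bach2 ranged from -3.53 to -3.25 over 12 alternatives, 10 of which called it, with edgeR adjusted p between 1.08e-21 and 0.99999. Genes past the size in the same direction in both plates numbered 369 at 1.5-fold, 38 with 40 or more UMIs and 109 with a prior count of 0.5, beside 329, 27 and 83 in opposite directions. Of 108 alternatives for list sums, 102 stayed within the spread of the plates, and among the rest the G2 and M phase list moved to 0.0608 as a mean over cells. The difference in Bach2-positive cells was -22.1 points in thinned cells. Of 808 alternatives for 68 genes, 16 reversed. Thinned, Hlf was at -0.0596 and Kit at 0.0394. With no replicate block, Jarid2 was at 0.0194 and mt-Cytb at 0.0939. Leaving out a plate gave -0.0151 to 0.15 for Hlf, -0.26 to 0.24 for Myct1, -0.34 to 0.24 for Kit, -0.29 to 0.0664 for Ly6a, -0.0587 to 0.43 for Txnip, -1.11 to 0.73 for Jarid2, -0.17 to 0.38 for Nfe2, -0.33 to 0.69 for Nfe2l2, -1.29 to 0.15 for mt-Rnr2, -1.52 to 0.24 for mt-Co1, -1.86 to 0.27 for mt-Cytb and -0.13 to 0.29 for Ddx3y. Tests without mitochondrial genes were added after seeing the data.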
